A study of Mus musculus with 12 samples.

Results

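The genes described here encode mitochondrial ribosomal proteins, and their transcripts were measured in cumulus cells, the somatic cells that surround the oocyte in the ovarian follicle. They were chosen by name: every entry of the gene table whose symbol begins with Mrpl or Mrps followed by a digit, without pseudogene names. The rule found 77 of 23997 entries, of which 48 are named for the large subunit (Mrpl) and 29 for the small subunit (Mrps). All 77 reached an FPKM of 1 in each of the 12 libraries, so none was lost to the filter on low values. FPKM, fragments scaled to transcript length and to the size of the library, is a level per transcript length. How the length of short transcripts entered the values is not stated, so levels of genes of very different length are compared with that reserve.

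The series compared female C57BL/6J mice without ClpP (ClpP-/-, called KO below) with wild-type females of that strain (WT), at 3 and at 6 months of age. The 4 groups were 3-month WT, 3-month KO, 6-month WT and 6-month KO, with 3 libraries each, numbered 1 to 3. Every mouse, controls included, had been injected with pregnant mare serum gonadotropin (5 IU), a hormone that drives follicle growth, and cells were collected 44 h later by the treatment protocol or 48 h later by the description of the series. A library came from 100 cells pooled from 1 mouse, so the spread between libraries is that between mice and preparations, with n = 3 per group. The comparisons ask how the loss of ClpP and age are reflected in the transcripts of these cells.

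The mitochondrial ribosome translates the few proteins that mitochondrial DNA encodes, which are core subunits of the respiratory chain and of ATP synthase. Its large subunit forms peptide bonds and its small subunit reads the mRNA. Its RNAs come from mitochondrial DNA, while all of its proteins are encoded in the nucleus, made in the cytosol and imported. In the mitochondrial matrix ClpP forms the proteolytic core of the protease ClpXP, and Eral1, a chaperone of the small-subunit rRNA that must leave during assembly, is a known substrate of it.

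Clpp itself separated the groups. It was at 88.2, 130.0 and 146.0 FPKM in the 3-month WT libraries and at 6.63, 1.10 and 2.07 FPKM in the 3-month KO libraries. The 6-month values were 128.6, 124.4 and 113.8 FPKM in WT and 1.64, 0.769 and 6.32 FPKM in KO. Its log2 difference was -5.03 (SE 0.54) at 3 months and -5.25 (SE 0.54) at 6 months, with limma adjusted p-values of 0.00872 and 0.00279. All libraries had between 9335 and 10861 genes at 1 FPKM or more, and a relative depth of 0.64 to 1.0 of the deepest. All 11 markers of granulosa and cumulus cells were above 0 in every library, with summed levels from 2980 to 8410 FPKM. The lowest sum was that of library 3 of 3-month KO. Library 3 of 3-month KO and of 6-month KO stood apart: the 8 markers of theca and stroma summed to 1080 and 1300 FPKM there and to between 0.514 and 140.0 FPKM in the other libraries. In the same order, 13 oocyte markers summed to 71.2 and 280 FPKM there, against at most 18.8 FPKM elsewhere. The sums of 8 endothelial markers were 38.1 and 54.4 FPKM, against at most 22.0 FPKM elsewhere. The 12 markers of blood and leukocytes were high in library 3 of every group, with sums of 757 and 868 FPKM for WT and KO at 3 months and of 1620 and 1440 FPKM at 6 months, against 4.49 to 78.8 FPKM elsewhere. Entries for small RNAs made up 37.5% of all FPKM in library 3 of 6-month KO. Library 3 of 3-month KO followed with 32.0% and library 1 of 3-month WT with 25.7%, and the rest had at most 6.82%.

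The promoters of these genes are shown first, since the choice by name did not use them. RefSeq promoters on GRCm38.p6, from 250 bases before to 50 bases after the start site, were found for 68 of the 77 genes. The motifs searched, on both strands, were GCGCATGC, the core that NRF1 binds (it can overlap itself), CCGGAAG, a core of ETS factors such as GABP, and AAGATGGCG, a core of YY1. NRF1 and GABP are known as activators of nuclear genes for mitochondrial proteins. A gene was counted when any of its promoters matched, while the share of all promoters is over single promoters. The share of tested genes is therefore the like measure. The NRF1 letters were in 8 of 68 members (11.8%), in 2.71% of all 32851 promoters and in 6.46% of the 8450 tested genes with a promoter. The ETS letters were in 25 members (36.8%), in 8.86% of all promoters and in 21.4% of tested genes. The YY1 letters were in 8 members (11.8%), in 1.4% of all promoters and in 3.94% of tested genes. The NRF1 letters were in 7 of 42 Mrpl and 1 of 26 Mrps genes with a promoter. None of the 3 motifs was in most members. Such a match describes the sequence and is not a measured binding site.

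The 4 stretches printed here lie before the start site, 5′ to 3′, with matched motifs in capitals, and were chosen to show the NRF1 letters alone, both cores together, the ETS letters alone and a promoter without a match. That of Mrpl9 (chr3:94443205-94443324, plus strand, bases -131 to -12 from the start site) holds the NRF1 letters on both strands. That of Mrpl22 (chr11:58171541-58171660, plus strand, bases -123 to -4) holds the ETS and then the NRF1 letters. That of Mrps18a (chr17:46110866-46110985, plus strand, bases -138 to -19) holds the ETS letters, and the YY1 letters of its window lie outside the part shown. That of Mrps6 (chr16:92058150-92058269, plus strand, bases -186 to -67) holds none of the 3 motifs.
Mrpl9: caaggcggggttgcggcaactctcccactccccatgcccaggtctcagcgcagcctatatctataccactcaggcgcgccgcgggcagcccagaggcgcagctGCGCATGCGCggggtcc
Mrpl22: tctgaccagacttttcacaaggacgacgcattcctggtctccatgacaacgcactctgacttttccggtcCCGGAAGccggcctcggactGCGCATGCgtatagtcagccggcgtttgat
Mrps18a: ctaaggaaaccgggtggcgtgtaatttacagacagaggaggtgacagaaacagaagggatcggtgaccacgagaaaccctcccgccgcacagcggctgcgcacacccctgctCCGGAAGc
Mrps6: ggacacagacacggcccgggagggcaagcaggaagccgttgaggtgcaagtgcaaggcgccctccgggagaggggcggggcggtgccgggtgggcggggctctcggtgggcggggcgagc

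In the GENCODE M21 annotation on GRCm38 all 77 genes were found, spread over 17 chromosomes, with 10 on chromosome 11 and 8 on chromosome 17. A coding gene on the opposite strand began within 1000 bases upstream of 18 of them (23.4%), against 1150 of 10256 tested genes (11.2%). For Mrps34 that neighbour is Eme2, 29 bases away. Exons of 21 members (27.3%) overlap exons of a gene on the opposite strand, a share that was not computed for all genes. The library kit does not mark strand, so within the overlapping stretches reads of the gene and of its partner cannot be told apart. Among those members are Mrpl10, Mrpl13, Mrps18b, Mrps26 and Mrps30, and the length of the overlaps was not measured.

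Members of both subunits were detected in cumulus cells at widely different levels. The Mrpl genes ran from a mean of 8.93 FPKM (Mrpl19) to 1184 FPKM (Mrpl33) over the 12 libraries, with a median of 107.8 FPKM and a ratio of 133 between highest and lowest. The Mrps genes ran from 12.2 FPKM (Mrps25) to 1213 FPKM (Mrps21), with a median of 110.2 FPKM and a ratio of 99.5. The medians of the subunits were thus close.

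**Figure D1:**
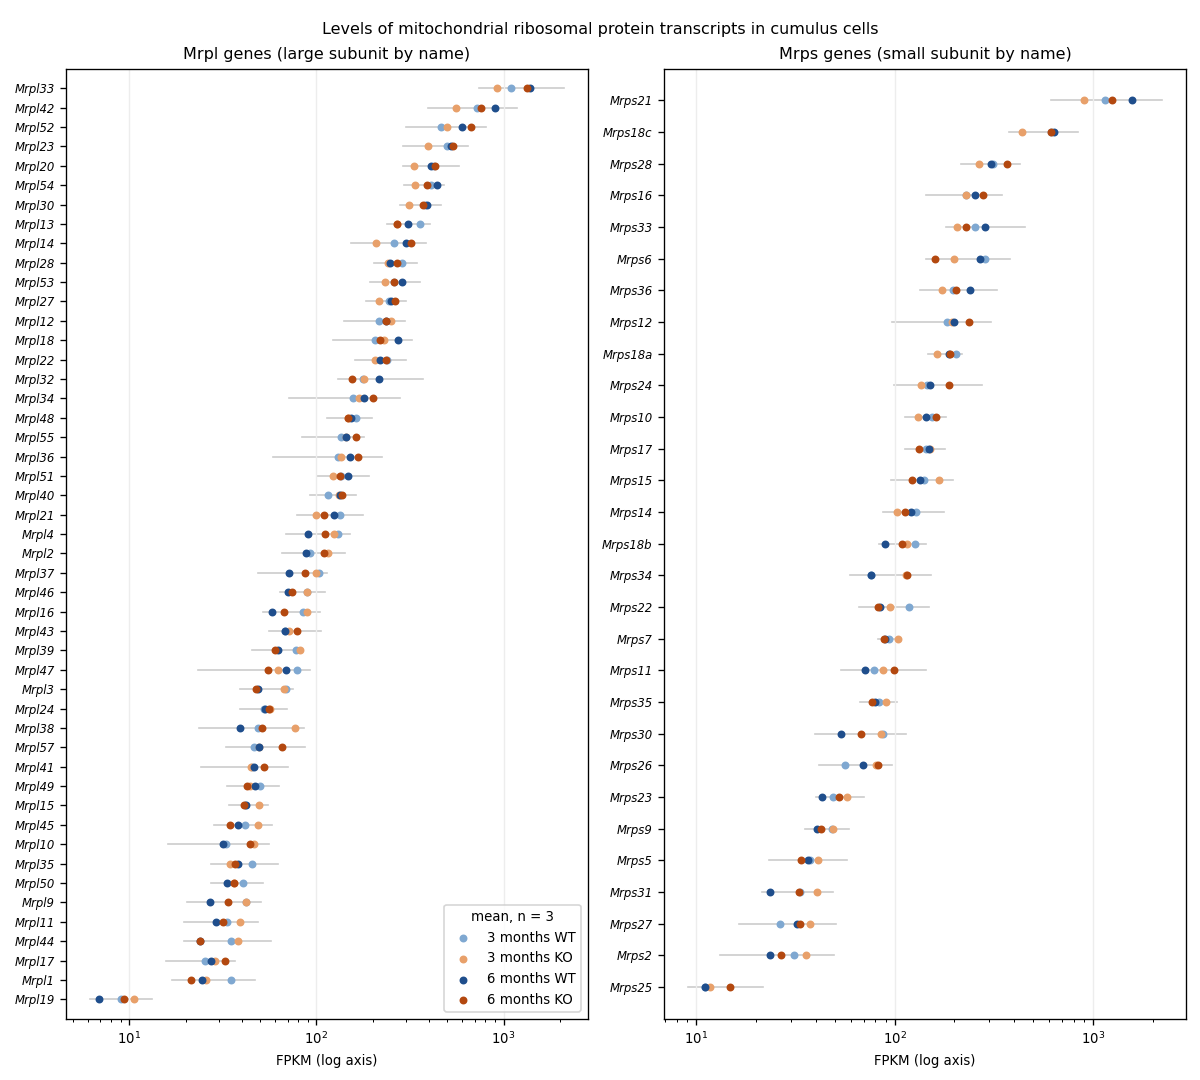
FPKM (log axis) of each Mrpl gene (left) and Mrps gene (right), ordered by the mean over 12 libraries: points are group means (n = 3) and grey lines run from the lowest to the highest library. Mrpl33 and Mrps21 are highest, at means of 1184 and 1213 FPKM, and Mrpl19 is lowest, at 8.93 FPKM, and the points of the 4 groups lie close together within each gene.

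A few short transcripts held much of the total. Mrpl33, Mrpl42 and Mrpl52, all of the large subunit, were at means of 1184, 734.3 and 555.5 FPKM and held 28.5% of the summed FPKM of the Mrpl genes. Mrps21, Mrps18c and Mrps28, at 1213, 575.2 and 312.7 FPKM, held 41.5% of that of the Mrps genes. Mrps18c is 1 of 3 mitochondrial relatives of a single bacterial small-subunit protein, and Mrps28 is the relative of the bacterial protein that binds mRNA at the small subunit. At the other end were Mrpl19, Mrpl1 and Mrpl17 at 8.93, 26.5 and 28.5 FPKM and Mrps25, Mrps2 and Mrps27 at 12.2, 29.3 and 32.3 FPKM. Mrpl1 belongs to the stalk beside the exit site of tRNA, and Mrps27 is a pentatricopeptide repeat protein without a bacterial counterpart. The lowest value of any member in any library was 6.15 FPKM, for Mrpl19 in 6-month WT library 2. Across the 77 genes the level was inversely ordered with transcript length (Spearman -0.761, 440.5 to 6073 bases, against -0.434 over 10257 tested genes). This is a description over genes measured in the same libraries.

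The order of the genes was nearly the same in all groups. Spearman correlations of the group means over the 77 genes lay between 0.976 and 0.989 for the 6 pairs of groups, a description over genes that share libraries. The spread between libraries of 1 group was moderate, with a median coefficient of variation of 19.0% for Mrpl and 20.5% for Mrps genes.

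The subunits as a whole varied more between libraries than between groups. As a summary, the log2(FPKM + 1) values of each gene were centred on its mean over the 12 libraries and averaged over the genes of a subunit. For the Mrpl genes this score was -0.33, 0.14 and 0.23 in the 3-month WT libraries and 0.08, 0.04 and -0.10 in the 3-month KO libraries. The 6-month scores were -0.09, -0.16 and 0.13 in WT and -0.10, 0.04 and 0.10 in KO. WT and KO overlapped at both ages, and the lowest of the 12 values was in 3-month WT library 1.

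For the Mrps genes the score was -0.28, 0.09 and 0.22 in 3-month WT and -0.07, 0.07 and 0.04 in 3-month KO. The 6-month scores were -0.08, -0.11 and 0.06 in WT and -0.09, 0.02 and 0.14 in KO. These groups overlapped too. The group means of both scores lay between -0.05 and 0.02, and the pooled SD within groups was 0.183 for Mrpl and 0.154 for Mrps genes, larger than any difference between group means. Of the 77 members 30 (39.0%) had their lowest value of the 12 libraries in 3-month WT library 1, as did 11.8% of all genes tested.

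**Figure D2:**
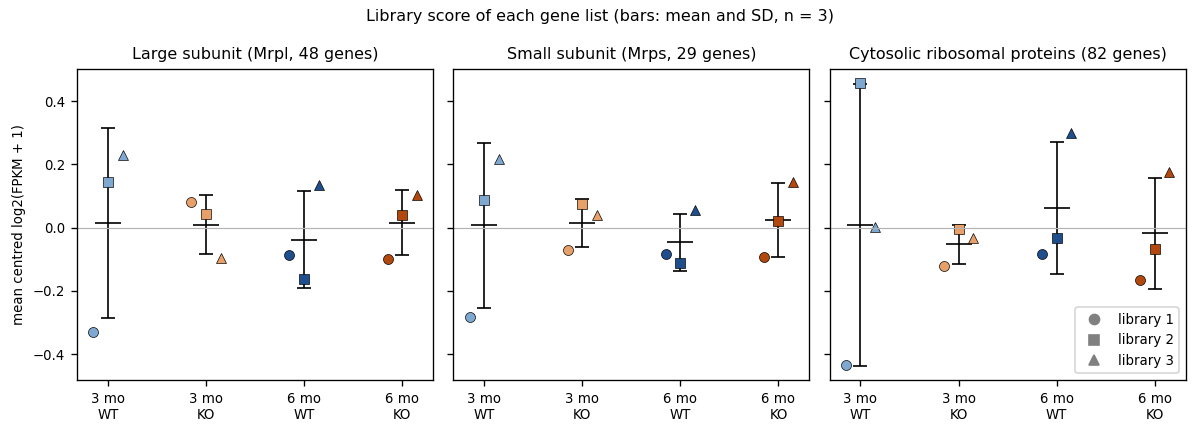
Library score, the mean of centred log2(FPKM + 1) values, for the Mrpl genes, the Mrps genes and the tested cytosolic ribosomal protein genes; each symbol is 1 library and bars are mean and SD (n = 3). In all 3 panels 3-month WT library 1 is lowest, at -0.33, -0.28 and -0.43, and WT and KO overlap at both ages.

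At 3 months no member differed between KO and WT in the test across all genes. Genes were called at a limma adjusted p under 0.05, and 0 of 48 Mrpl and 0 of 29 Mrps genes passed, as did 0.00893% of all 11196 genes tested (Clpp alone). At an unadjusted p under 0.05 there was 1 gene of each subunit, Mrpl38 and Mrps34, 2 of 77 against 6.8% of all genes. Leaving out 1 library at a time, these numbers ran from 0 to 4 for Mrpl and from 0 to 3 for Mrps genes. In each library the RNA of 100 cells was measured together, so fewer cells of a type and less RNA per cell cannot be told apart. The median log2 difference was 0.02 for Mrpl and 0.05 for Mrps genes, against 0.01 over all genes, with 25 of 48 and 16 of 29 above 0 (51.2% of all genes). These medians rested on 3-month WT library 1. Without it they were -0.17 and -0.16, beside -9.53e-05 for all genes, with 11 of 48 and 11 of 29 above 0. With FPKM rescaled to equal sums without small RNA they were 0.16 and 0.19, where the median of all genes was 0.12. With values centred on the median of each library they were -0.05 and -0.03, beside -0.06 for all genes. Both scalings moved all genes by a like amount. The family medians stayed at or just above the median of all genes under each scaling, though not without 3-month WT library 1.

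The precision was enough to bound most members. The 95% interval of the difference lay within 1 unit of log2(FPKM + 1) on either side of 0 for 42 of 48 Mrpl and 20 of 29 Mrps genes, and for 27.6% of all genes tested. A missed threshold does not show equal levels, and smaller differences than these intervals allow were not resolved with 3 libraries a group.

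Among the Mrpl genes Mrpl38 had the smallest unadjusted p at 3 months. Mrpl38 (chr11:116131817-116138868, minus strand) encodes a mitochondria-specific protein of the large subunit. It was at 43.2, 43.3 and 59.7 FPKM in WT and at 85.7, 77.5 and 66.9 FPKM in KO. All 3 KO libraries were above all 3 WT libraries. Its log2 difference was 0.65 (SE 0.29, unadjusted p = 0.0466), with a limma adjusted p of 0.73.

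Mrpl10 forms the base of the stalk on which translation factors land. It was at 41.6, 16.1 and 40.9 FPKM in WT and at 47.7, 46.0 and 44.8 FPKM in KO. Its KO libraries were all higher than its WT libraries, narrowly for libraries 1 and 3 of WT and widely for library 2. The difference was 0.59 on the log2 scale (SE 0.36, limma adjusted p = 0.782), and 0.16 without WT library 2.

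The other 4 Mrpl genes named at 3 months were lower on average in KO. Mrpl13 was at 279.3, 403.2 and 392.3 FPKM in WT and at 237.6, 303.9 and 263.3 FPKM in KO, groups that overlapped, with a log2 difference of -0.40 (SE 0.23). Mrpl21 was at 133.4 ± 39.8 FPKM in WT and 99.9 ± 19.1 FPKM in KO (mean ± SD, n = 3, here and below). Mrpl54, a small mitochondria-specific protein, was at 409.0 ± 66.8 and 335.2 ± 71.4 FPKM. Mrpl1 was at 34.7 ± 10.5 and 25.7 ± 4.64 FPKM. Their limma adjusted p-values lay between 0.773 and 0.832, and WT and KO overlapped for all 4.

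Among the Mrps genes Mrps34 stood first at 3 months. Mrps34 (chr17:24895116-24897502, plus strand) encodes a mitochondria-specific protein that the small subunit needs for its stability. It was at 59.5, 70.7 and 97.8 FPKM in WT and at 105.1, 109.5 and 126.3 FPKM in KO. The groups did not overlap. The lowest value was in WT library 1, where 39.0% of the members were lowest. The highest was in KO library 3, which also held other-cell markers. The log2 difference of Mrps34 was 0.60 (SE 0.26, unadjusted p = 0.0401), with a limma adjusted p of 0.73. Leaving out 1 library at a time, it ran from 0.441 to 0.795.

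The other named Mrps genes at 3 months pointed both ways. Mrps26, at 41.8, 50.1 and 76.1 FPKM in WT and 97.6, 72.7 and 71.5 FPKM in KO, had a log2 difference of 0.55 (SE 0.27) and overlapping groups. Mrps18a was at 189.7, 219.5 and 202.7 FPKM in WT and at 164.5, 179.0 and 147.0 FPKM in KO. Each KO library was below each WT library for Mrps18a, with a log2 difference of -0.32 (SE 0.20). Mrps6 was at 187.3, 331.9 and 338.0 FPKM in WT and at 154.6, 235.5 and 205.3 FPKM in KO, a log2 difference of -0.49 (SE 0.31). Mrps6 overlapped between the groups through library 1 of WT. Mrps18c, the second most abundant Mrps gene, was at 613.3 ± 187.0 FPKM in WT and 438.3 ± 67.4 FPKM in KO, also overlapping. Limma adjusted p-values of these 4 genes lay between 0.749 and 0.804.

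In all, the KO libraries lay wholly above the WT libraries for 5 of 77 members at 3 months (Mrpl10, Mrpl38, Mrps7, Mrps23 and Mrps34) and wholly below for 1 (Mrps18a). Over all genes tested the shares were 5.02% and 5.22%. Both counts were near or under the background.

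**Figure D3:**
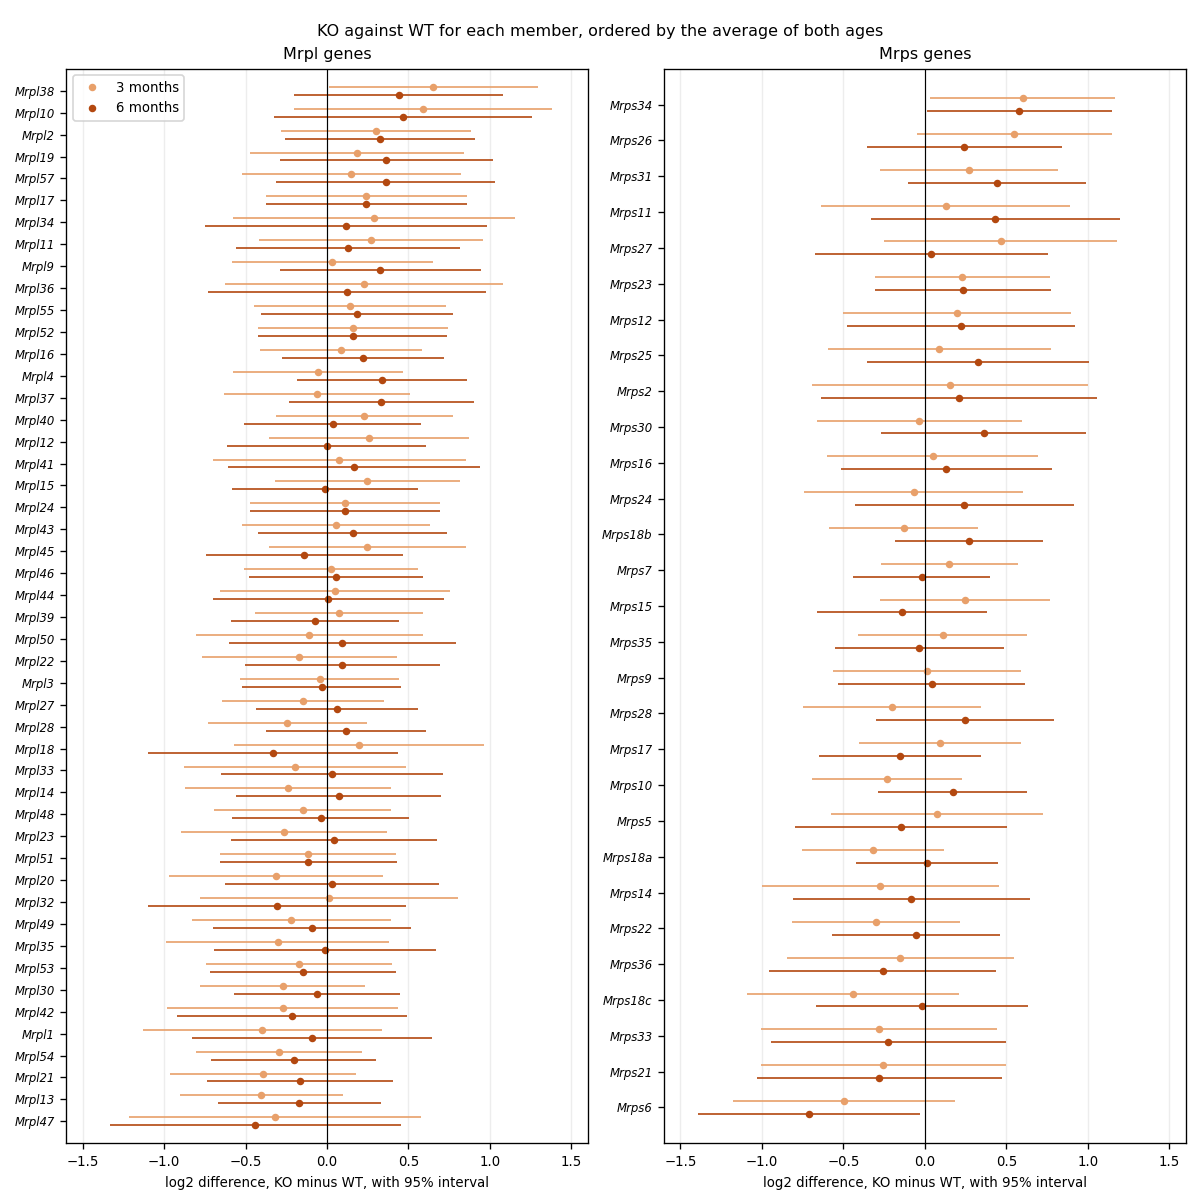
Log2 difference of KO minus WT with its 95% interval for each Mrpl gene (left) and Mrps gene (right) at 3 and at 6 months, ordered by the average of both ages. Mrps34 is the gene whose intervals lie above 0 at both ages, at 0.60 and 0.58, Mrps6 is lowest of the Mrps genes at -0.49 and -0.71, and most other intervals cross 0.

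At 6 months again no member was called, 0 of 48 and 0 of 29, with 0.0268% of all genes called. At an unadjusted p under 0.05 there were 0 Mrpl and 2 Mrps genes, Mrps6 lower and Mrps34 higher in KO, against 1.22% of all genes. Leaving out 1 library at a time, these numbers ran from 0 to 1 for Mrpl and from 0 to 2 for Mrps genes. The median log2 difference was 0.05 for Mrpl and 0.04 for Mrps genes, beside 0.01 over all genes, with 29 of 48 and 17 of 29 above 0 (51.5% of all genes). Centred on the median of each library these medians were -0.01 and -0.02, beside -0.04 for all genes. The 95% interval lay within 1 log2 unit of 0 for 41 of 48 and 23 of 29 genes and for 34.5% of all genes.

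Mrps34 was again higher in every KO library at 6 months. It was at 81.8, 76.5 and 68.7 FPKM in WT and at 94.9, 99.8 and 153.2 FPKM in KO. The highest value was in KO library 3, which also held the other-cell markers and the largest share of small RNA. The KO libraries 1 and 2 were above the WT libraries as well. The log2 difference was 0.58 (SE 0.26, unadjusted p = 0.0464), with a limma adjusted p of 1.0. It was 0.30 without the libraries numbered 3 of both 6-month groups and of 3-month KO, in which the other-cell markers were high. That setting kept library 3 of 3-month WT, which had 757 FPKM of blood and leukocyte markers and 140 FPKM of theca and stroma markers.

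Mrps6 (chr16:92058270-92112227, plus strand), the relative of a bacterial protein of the platform side of the small subunit, had the largest difference in size of the members at 6 months. It was at 197.2, 233.1 and 381.1 FPKM in WT and at 153.1, 181.2 and 143.4 FPKM in KO. All KO libraries were below all WT libraries, and WT library 3 was far above the other two. The log2 difference was -0.71 (SE 0.31, unadjusted p = 0.0426), with a limma adjusted p of 1.0. Without WT library 3 it was -0.43, and after leaving out those same 3 libraries it was -0.36.

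Mrps31, a mitochondria-specific protein of the small subunit, was at 26.4, 22.9 and 21.6 FPKM in WT and at 31.2, 26.9 and 40.4 FPKM in KO, without overlap, with a log2 difference of 0.44 (SE 0.25). Mrps18b was at 89.9 ± 6.27 FPKM in WT and 109.2 ± 16.8 FPKM in KO, and Mrps30 at 53.9 ± 14.4 and 68.0 ± 7.48 FPKM, both with overlapping groups. Without KO library 3 the difference of Mrps31 was 0.29, and without WT library 3 that of Mrps30 was 0.16.

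All 6 Mrpl genes named at 6 months had a higher mean in KO and overlapping groups, with limma adjusted p-values of 1.0. Mrpl38 was at 52.0, 41.5 and 23.5 FPKM in WT and at 49.3, 46.9 and 56.2 FPKM in KO, a log2 difference of 0.44 (SE 0.29). Mrpl10 was at 39.4, 32.5 and 23.3 FPKM in WT and at 33.7, 43.3 and 55.7 FPKM in KO, a log2 difference of 0.47 (SE 0.36). Neither gene separated the groups at this age. Mrpl4, which lines the exit tunnel, was at 90.1 ± 24.1 FPKM in WT and 111.7 ± 5.63 FPKM in KO, and Mrpl2, beside the catalytic centre, at 88.2 ± 21.1 and 109.9 ± 19.3 FPKM. Mrpl37 was at 71.5 ± 24.7 and 86.9 ± 3.22 FPKM and Mrpl19 at 6.83 ± 0.887 and 9.35 ± 3.21 FPKM. For Mrpl38, Mrpl10, Mrpl4, Mrpl37 and Mrpl2 the lowest WT value was that of library 3, which had 1620 FPKM of blood and leukocyte markers. Without that library the log2 difference was 0.12 for Mrpl38, 0.27 for Mrpl10, 0.16 for Mrpl4, 0.09 for Mrpl37 and 0.13 for Mrpl2. For Mrpl19 it was 0.12 without KO library 3, the library of its highest 6-month value. Leaving out the 3 libraries high in other-cell markers gave 0.05 for Mrpl38 and 0.09 for Mrpl10.

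The KO libraries were wholly above WT at 6 months for 3 members (Mrpl16, Mrps31 and Mrps34) and wholly below for 1 (Mrps6), beside 3.79% and 3.01% of all genes. Mrps34 was the single member without overlap in the same direction at both ages, as were 66 of all genes tested (0.589%). Members without overlap in opposite directions numbered 0, against 24 of all genes (0.214%). Mrps34 was picked out after its values were seen, and the WT and KO libraries of the 2 ages come from different mice.

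**Figure D4:**
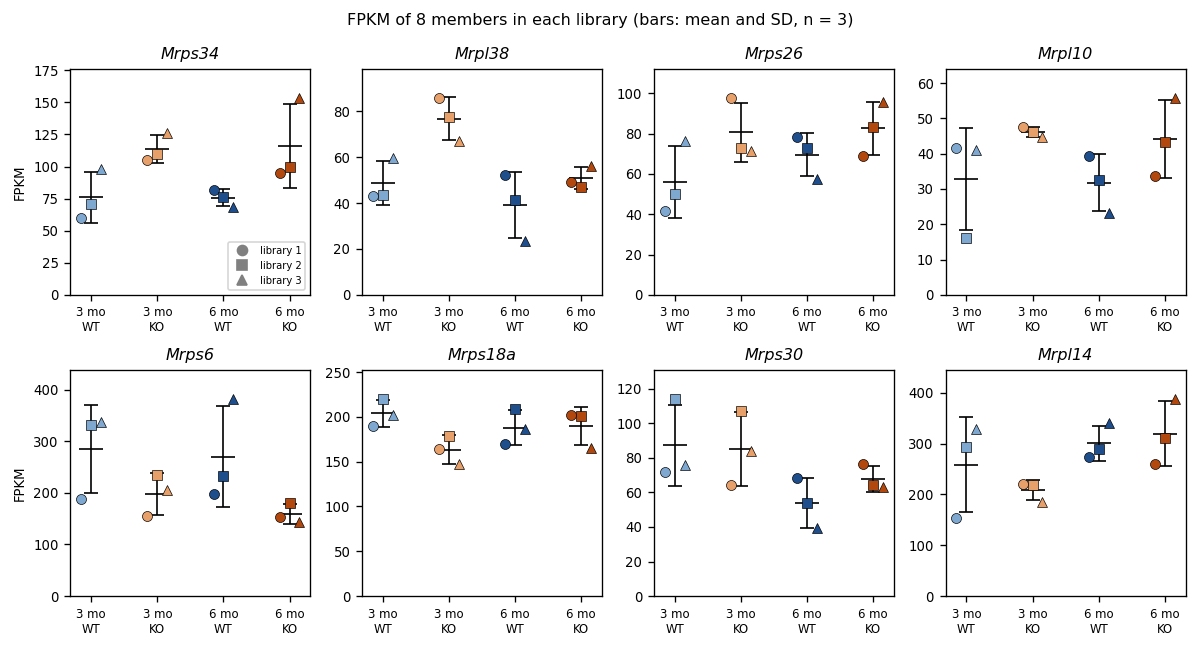
FPKM of 8 members in each of the 12 libraries (one symbol per library, bars mean and SD, n = 3, axes from 0). Mrps34 is higher in all KO than in all WT libraries of the same age, Mrps6 is lower in all 6-month KO libraries (143.4 to 181.2 FPKM) than in all 6-month WT libraries (197.2 to 381.1 FPKM), and Mrps30 is lowest in 6-month WT.

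Averaged over both ages, 0 of 77 members were called, beside 0.0179% of all genes. Mrpl38, Mrps34 and Mrps6 were at an unadjusted p under 0.05, 3 of 77 against 5.96% of all genes. Mrps34 had a log2 difference of 0.59 (SE 0.18, unadjusted p = 0.0077, limma adjusted p = 0.783) and a 95% interval from 0.19 to 0.99. Mrps6 had -0.60 (SE 0.22, unadjusted p = 0.0186) and Mrpl38 had 0.55 (SE 0.21, unadjusted p = 0.0222), with the same adjusted p of 0.783. Mrpl10 was at 0.53 (SE 0.26) and Mrpl13 at -0.29 (SE 0.16). The medians were 0.01 for Mrpl and 0.05 for Mrps genes, against 0.01 over all genes. The 95% interval lay within 1 log2 unit of 0 for 45 of 48 and 28 of 29 members, 73 of 77 in all. Over all genes tested it did so for 61.6%.

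The difference between the KO effects at 6 and at 3 months was tested as the interaction of genotype and age. No member was called (0.00893% of all genes were), and at an unadjusted p under 0.05 there were 0 members, against 2% of all genes. The medians were 0.07 for Mrpl and 0.06 for Mrps genes, with 31 of 48 and 18 of 29 above 0. Over all genes tested the median was 0.01, with 50.8% above 0. Without 3-month WT library 1 the medians were 0.27 and 0.28, beside 0.02 for all genes. With FPKM rescaled without small RNA they were -0.10 and -0.12, where all genes had moved to -0.13. The smallest unadjusted p-values were those of Mrpl4 (0.39, SE 0.34), Mrpl28 (0.36, SE 0.32) and Mrpl37 (0.39, SE 0.37) in the large subunit and of Mrps10 (0.40, SE 0.30) and Mrps18b (0.40, SE 0.30) in the small subunit. Each had a limma adjusted p of 1.0.

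Some members sit elsewhere than their names say. Mrps30 and Mrps18a are built into the large subunit, and Mrps18b and Mrps18c, relatives of Mrps18a, into the small one. The KO difference at 3 months was -0.03 (SE 0.29) for Mrps30, -0.32 (SE 0.20) for Mrps18a, -0.13 (SE 0.21) for Mrps18b and -0.44 (SE 0.30) for Mrps18c. At 6 months it was 0.36 (SE 0.29), 0.01 (SE 0.20), 0.27 (SE 0.21) and -0.02 (SE 0.30) in the same order. The 3 relatives Mrps18b, Mrps18a and Mrps18c came in this order from highest to lowest difference at both ages, within these errors, and the differences between them were not tested. Mrps36, now known as a component of the 2-oxoglutarate dehydrogenase complex, was at 203.7 FPKM over the 12 libraries, with differences of -0.15 (SE 0.32) and -0.26 (SE 0.32). Mrpl12, the stalk protein that has also been reported at the mitochondrial RNA polymerase, was at 234.4 FPKM, with differences of 0.26 (SE 0.28) and 0.00 (SE 0.28).

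The 48 members with a counterpart in bacteria and the 28 specific to mitochondria gave similar medians. Their median log2 differences were -0.02 and 0.06 at 3 months and 0.05 and 0.05 at 6 months, and 0 members of either class were called. Of the mitochondria-specific class 2 of 28 (7.14%) were at an unadjusted p under 0.05 at 3 months, again Mrpl38 and Mrps34. Of the other class it was 0 of 48, and of all genes tested 6.8%, near the share of the first class. Mrps36 was counted in neither class. No test of the difference between the classes was made.

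Between 3 and 6 months of age 0 members were called in WT (0.00893% of all genes were) and 0 in KO (0.0179%). In WT 6 of 77 members were at an unadjusted p under 0.05 (7.44% of all genes), namely Mrpl16, Mrpl4, Mrpl3, Mrpl37, Mrps30 and Mrps18b, all lower at 6 months. Without library 2 of 3-month WT, or without library 2 of 6-month WT, the number was 0, as it was when only the WT libraries were fitted. The WT medians were -0.024 for Mrpl and -0.055 for Mrps genes. They were -0.174 and -0.165 without 3-month WT library 1 and 0.087 and 0.059 without 3-month WT library 3, and 0.075 and 0.044 with FPKM rescaled without small RNA, beside 0.027 for all genes as deposited and 0.104 rescaled. In KO Mrpl3 was the single such member, 1 of 77 against 6.48% of all genes. Leaving out 1 library at a time, the number in KO ran from 0 to 2 for Mrpl and from 0 to 1 for Mrps genes. The 6-month libraries of WT lay wholly above the 3-month libraries for 0 members (7.94% of all genes) and wholly below for 8 (7.81%). In KO they lay above for 10 (6.82%) and below for 6 (5.98%).

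Mrps30 (chr13:118378381-118387252, minus strand), the large-subunit protein with a small-subunit name, had the largest WT difference with age. It was at 71.7, 113.9 and 76.1 FPKM at 3 months and at 68.2, 53.8 and 39.5 FPKM at 6 months, without overlap. Its log2 difference was -0.69 (SE 0.29, unadjusted p = 0.0348), with a limma adjusted p of 0.664. In KO it was at 64.4, 107.3 and 83.9 FPKM at 3 months and at 76.6, 64.3 and 63.1 FPKM at 6 months, and those groups overlapped.

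Mrpl3, which reaches toward the catalytic centre of the large subunit, was lower at 6 months in both genotypes. In WT it was at 70.1, 71.8 and 64.8 FPKM at 3 months and at 56.3, 44.1 and 45.3 FPKM at 6 months. In KO it was at 60.8, 74.9 and 65.0 FPKM and then at 49.0, 55.0 and 39.0 FPKM. The ages did not overlap in either genotype. The log2 differences were -0.50 (SE 0.22, unadjusted p = 0.0446) in WT and -0.49 (SE 0.22, unadjusted p = 0.0497) in KO, with limma adjusted p-values of 0.664 and 0.745.

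Mrpl16 was at 65.9, 104.2 and 84.3 FPKM in 3-month WT and at 59.2, 52.0 and 62.0 FPKM in 6-month WT, a log2 difference of -0.53 (SE 0.23). Mrpl4 had -0.55 (SE 0.24) in WT, with overlapping ages, and Mrps18b -0.48 (SE 0.21) without overlap. In KO, Mrpl14, a protein of the subunit interface, was at 220.2, 219.1 and 186.0 FPKM at 3 months and at 260.5, 311.5 and 387.1 FPKM at 6 months, a log2 difference of 0.60 (SE 0.29). Mrpl38 in KO was at 85.7, 77.5 and 66.9 FPKM and then at 49.3, 46.9 and 56.2 FPKM, a difference of -0.58 (SE 0.29). Both separated the ages in KO, in opposite directions. In KO Mrps15 was at 167.1 ± 26.1 and 122.3 ± 22.7 FPKM and Mrps28 at 266.0 ± 38.8 and 366.1 ± 60.1 FPKM at 3 and 6 months, each without overlap, and none of these genes passed (limma adjusted p from 0.664 to 0.748).

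The age differences of the members were ordered by transcript length, a pattern noticed in these values and therefore given as a description. Lengths are the median over the coding transcripts of each gene in GENCODE M21. Across the 77 members the Spearman correlation of length with the log2 difference of 6 against 3 months was -0.429 in WT and -0.585 in KO. Over the 10180 other tested genes it was of the opposite sign, 0.21 and 0.147. Among the 25 shortest members (up to 918 bases) 21 were above 0 in WT and 22 in KO, with medians of 0.13 and 0.25. Among the 25 longest (1849 bases or more) 9 and 9 were above 0, with medians of -0.08 and -0.20. Mrps21, Mrpl33, Mrpl42, Mrpl52 and Mrps18c, the most abundant members, were among the short ones, and Mrpl3 and Mrps30 among the long ones. Most cytosolic ribosomal protein genes were also higher at 6 months. In WT 60 of 82 were above 0 with a median of 0.065, and in KO 52 of 82 with a median of 0.06. Of all genes tested 51.9% and 50.8% were above 0.

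Because the short members are also the abundant ones, length and level cannot be told apart in this order. WT and KO at each age are different libraries, while members share their libraries, so the 77 points are not independent. Per library, the mean centred value of the shortest members less that of the longest was -0.37, 0.02 and 0.12 in 3-month WT and -0.27, -0.34 and -0.11 in 3-month KO. The 6-month values were 0.05, 0.21 and 0.29 in WT and -0.02, 0.11 and 0.32 in the KO group. The pooled SD within groups was 0.177, the ages did not overlap in KO, and they overlapped in WT. The difference of the medians of the shortest and longest members was 0.45 in KO, and 0.29 to 0.57 over the other settings, leaving out each library included. In WT it was 0.21, and 0.06 to 0.29 over those settings.

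**Figure D5:**
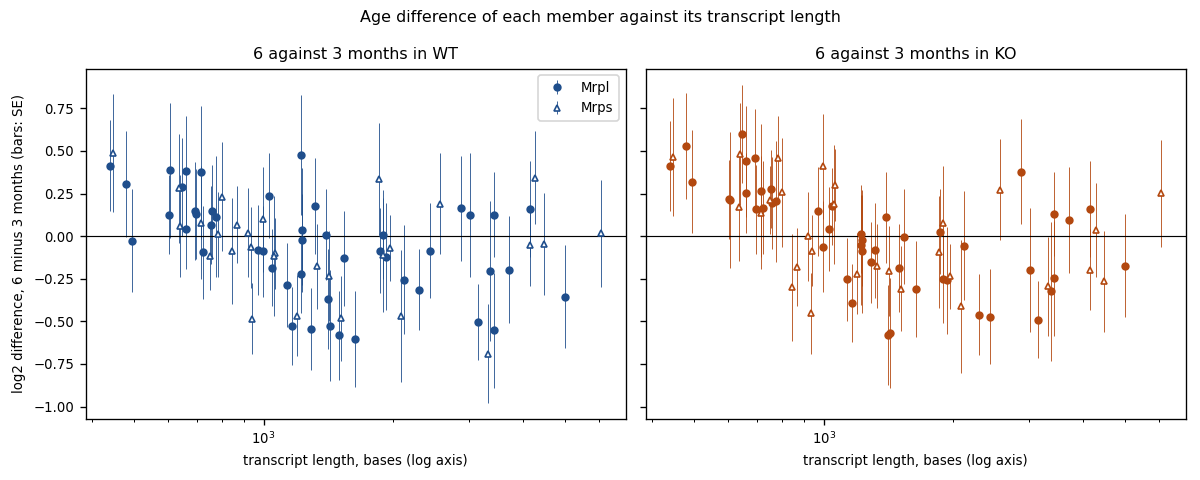
Log2 difference of 6 minus 3 months (vertical axis, bars SE) against transcript length in bases (log axis) for each of the 77 members, in WT (left) and KO (right). Most of the short members lie above 0 and most of the others below it, with Spearman correlations of -0.429 in WT and -0.585 in KO.

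The KO differences were less ordered by length. The correlation was 0.275 at 3 months (0.132 to 0.477 over the other settings) and 0.127 at 6 months (0.004 to 0.301), ranges that overlap, and -0.09 and -0.197 over the other genes. At 3 months the shortest members had a median of -0.20 (8 of 25 above 0) and the longest 0.07 (16 of 25), and at 6 months 0.03 and -0.01. The difference of the 2 medians ran from -0.36 to -0.18 over the other settings at 3 months and from -0.11 to 0.07 at 6 months.

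Other genes of mitochondrial translation were taken from lists of known components. The mitoribosomal proteins without an Mrp symbol numbered 6 in the table, and 0 were called at either age. Of these Dap3, a GTP-binding protein of the small subunit, was at 32.2, 32.1 and 30.4 FPKM in 3-month WT and at 33.6, 33.4 and 30.2 FPKM in 3-month KO. At 6 months Dap3 was at 24.8, 19.9 and 24.8 FPKM in WT and at 26.1, 29.8 and 36.3 FPKM in KO, without overlap, with a log2 difference of 0.39 (unadjusted p = 0.111). Ptcd3, a pentatricopeptide repeat protein of the small subunit, was at 41.1 ± 10.6 FPKM in 3-month WT and 58.5 ± 13.9 FPKM in 3-month KO, with overlapping groups. Chchd1, Gadd45gip1 and Aurkaip1 had log2 differences between -0.22 and 0.18 at both ages.

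Of 15 translation factors and mRNA-handling proteins 0 were called. At 3 months 14 of 15 were above 0 with a median log2 difference of 0.33, and 3 were at an unadjusted p under 0.05, while at 6 months 11 of 15 were above 0 with a median of 0.21. Of all genes 51.2% and 51.5% were above 0 at the 2 ages, and 6.8% were at an unadjusted p under 0.05 at 3 months. Leaving out 1 library at a time, the median ran from 0.16 (without 3-month WT library 1) to 0.52 (without 3-month KO library 1) at 3 months. At 6 months it ran from 0.14 to 0.25. Without 3-month KO library 2 the number above 0 at 3 months was 11. The number at an unadjusted limma p under 0.05 was 1 without that library and 4 without 3-month WT library 3. Lrpprc, which with Slirp stabilises mitochondrial mRNAs, was at 9.75, 7.38 and 7.19 FPKM in 3-month WT and at 14.3, 23.1 and 19.1 FPKM in 3-month KO. Its groups did not overlap and its log2 difference was 1.11 (SE 0.28, unadjusted p = 0.00165), with a limma adjusted p of 0.628. At 6 months it was at 10.7, 10.8 and 8.74 FPKM in WT and at 14.1, 10.3 and 11.0 FPKM in KO. The 2 ages' differences for Lrpprc differed by -0.91 (SE 0.39, unadjusted p = 0.0375, limma adjusted p = 1.0). Lrpprc was named for its small p at 3 months, and that test reuses the 3-month values. Its partner Slirp was at 1040 ± 357 FPKM in 3-month WT and 726 ± 94.8 FPKM in 3-month KO.

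The release factor Mtrf1 was at 8.63 ± 3.38 FPKM in 3-month WT and 15.6 ± 3.63 FPKM in 3-month KO, and Taco1, an activator of the translation of a cytochrome oxidase subunit, at 2.41 ± 1.69 and 4.85 ± 1.51 FPKM. At 6 months the smallest p-values were those of the initiation factor Mtif3 (log2 difference 0.51), the elongation factor Tsfm (0.27) and the insertase Oxa1l (0.34), at an unadjusted p of 0.146 or more. None of these 5 passed the adjusted threshold.

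Of 26 assembly factors 21 were in the table and tested, and 0 were called. Their median log2 difference was 0.29 at 3 months, with 15 of 21 above 0, and 0.38 at 6 months, with 16 of 21 above 0, beside 51.2% and 51.5% of all genes. Leaving out 1 library at a time, the medians ran from 0.22 (without 3-month WT library 2) to 0.49 (without 3-month KO library 3) at 3 months and from 0.205 to 0.379 at 6 months, where leaving out any of the 6 libraries but KO library 2 gave 0.246 or less. Eral1, the known ClpXP substrate, was at 15.4, 9.77 and 9.77 FPKM in 3-month WT and at 16.7, 22.1 and 12.2 FPKM in 3-month KO. At 6 months Eral1 was at 9.29, 9.93 and 6.82 FPKM in WT and at 14.2, 12.9 and 8.4 FPKM in KO. The Eral1 groups overlapped at both ages, with log2 differences of 0.50 (SE 0.32) and 0.39. These are transcript levels, and the protein was not measured.

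Noa1, a GTPase of small-subunit assembly, was at 5.31, 2.09 and 4.57 FPKM in 3-month WT and at 9.3, 13.0 and 5.76 FPKM in 3-month KO, without overlap, with a log2 difference of 1.05 (SE 0.36, limma adjusted p = 0.664). Dhx30, an RNA helicase of mitochondrial RNA granules, was at 4.05 ± 2.65 and 9.22 ± 3.73 FPKM. At 6 months the log2 difference was -0.10 for Noa1 and -0.06 for Dhx30. The difference between the ages was -1.16 for Noa1 (SE 0.51, unadjusted p = 0.0416, limma adjusted p = 1.0). Noa1 was named for its small p at 3 months, and that difference reuses the 3-month values. Mrm1, an rRNA methyltransferase, did not overlap between the genotypes at either age. It was at 1.13, 1.74 and 1.65 FPKM in 3-month WT, 2.86, 2.35 and 3.01 FPKM in 3-month KO, 0.87, 1.05 and 1.43 FPKM in 6-month WT and 1.66, 1.68 and 3.56 FPKM in 6-month KO. Its log2 difference was 0.58 and 0.60 at the 2 ages, with limma adjusted p-values of 0.768 and 1.0. At 6 months Mettl17, a small-subunit assembly factor, was at 6.61 ± 1.43 FPKM in WT and 12.5 ± 3.48 FPKM in KO, without overlap, and the rRNA methyltransferase Rnmtl1 at 10.4 ± 3.64 and 15.4 ± 3.52 FPKM. Low values such as those of Mrm1 carry the counting error of few reads.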

How the data were processed

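The values analysed are the FPKM that the authors deposited in 1 gene table for the 12 libraries. Per the labels' protocols, Smart-Seq2 cDNA went into Nextera XT libraries and reads were paired, of 75 bp. The submitters' processing notes name TopHat2 2.0.10 with Bowtie2 2.1.0, Cufflinks 1.2.1, SAMtools 0.1.18, FastQC and cutadapt, and the genome GRCm38/mm10. The annotation, and how the length of short transcripts entered the FPKM, are not given in the sources used here. Counts were not used here, so values carry no counting interval.

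Genes at 1 FPKM or more in at least 3 libraries (11196 of 23997) were analysed as log2(FPKM + 1), which understates the change of low genes, with limma 3.58.1 in R 4.3.3. The model had 4 group means (8 residual and 3.9 prior degrees of freedom, eBayes with trend). Tests are 2-sided, and limma's p-values were adjusted by Benjamini and Hochberg across all 11196 genes tested and called under 0.05. The script was tested on simulated data. Python 3.11.15 with pandas 2.3.3, scipy 1.17.1 and matplotlib 3.10.9 did the rest.

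Members, lists and alternatives were chosen with earlier results of these data known. Named at each age were the 6 Mrpl and 5 Mrps genes with the smallest unadjusted p, in every other contrast the 3 and 2 smallest, the 3 highest and 3 lowest of each subunit, members placed elsewhere than named, and 3 genes of each other list per age. Those picked beyond this were chosen after their values were seen. Alternatives were the pseudocount, the filter, rescaling, centring, the libraries fitted, eBayes without trend, a replicate block, leaving out each library, and leaving out 3 libraries with other-cell markers. Library 3 of 3-month WT, also high in blood and leukocyte markers, was kept in the last of these.

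The labels do not say that a library number marks a shared mouse, litter or day. Libraries with equal numbers had deviations from their group means that correlated at 0.0946, -0.0185 and 0.205 for WT and KO at 3 months, 0.158, 0.373 and 0.466 at 6 months, 0.0319, 0.0303 and 0.278 between ages in WT, and 0.114, 0.394 and 0.653 in KO. All 3 are over 0.1 at 6 months and between ages in KO only. In every pair of groups, those included, library 3 was the best match of library 3, but libraries 1 and 2 matched each other's number best, so a pairing by number is uncertain.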

Additional observations from a re-analysis of the deposited data

How the results depend on the processing

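Members called numbered 0 in all 248 counts over up to 21 alternatives for each comparison, and the smallest adjusted p of a named member under any alternative was 0.273. Over all genes tested only 0 to 10 were called under any alternative, so these counts of 0 say little about the members. The 25 members named for a contrast were picked by p, and several alternatives cannot move a log2 difference, so agreement of sign among their values is no sign of stability. Without 3-month WT library 2 the difference at 3 months was 0.157 for Mrpl10, -0.166 for Mrpl1, -0.167 for Mrpl21 and -0.175 for Mrpl54. Without 6-month KO library 3 that of Mrps34 was 0.362, and without 6-month WT library 3 that of Mrps6 was -0.434. The replicate block, which treats equal library numbers as paired, cannot move a difference in this balanced design (medians 0.02 and 0.05 at 3 months, 0.05 and 0.04 at 6 months for Mrpl and Mrps genes, as without it), and its tests called 0 members. Leaving out 1 library at a time, the KO median at 3 months ran from -0.173 to 0.045 for Mrpl and from -0.158 to 0.127 for Mrps genes, and the interaction median from -0.013 to 0.273 and from -0.064 to 0.28, the far end in each case without 3-month WT library 1. At 6 months the KO medians ran from -0.02 to 0.15 and from 0.01 to 0.16. Rescaled without small RNA the interaction median of the Mrps genes was -0.115, against 0.06 as deposited, with -0.13 against 0.01 for all genes. The cause of the shifts by library was not tested. The settings for the length order and for the lists of translation and assembly factors were chosen after seeing the data. Depth is known only as relative depth, so counting error of low values cannot be given.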

Other observations

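Cytosolic ribosomal proteins, the family that makes up the ribosomes outside mitochondria, varied between the same libraries. Of 85 such genes 82 were tested, and 0 were called in any of the 6 contrasts. Their library score was -0.43, 0.46 and 0.00 in 3-month WT and -0.12, 0.00 and -0.03 in 3-month KO. At 6 months it was -0.08, -0.03 and 0.30 in WT and -0.17, -0.07 and 0.18 in KO. Their median KO difference was -0.07 at 3 months, with 23 of 82 above 0 (51.2% of all genes). At 6 months it was -0.10, with 16 of 82 above 0 (51.5% of all genes). The medians of the mitochondrial family were 0.02 and 0.04 over both subunits. The score of the cytosolic family had an SD of 0.446 in 3-month WT, larger in size than any of these medians. The difference between the families was not tested.

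Extreme values of the members were spread unevenly over libraries. The highest of the 12 values lay in 6-month KO library 3 for 20 of 77 members (26.0%, against 20.3% of all genes tested), in 3-month WT library 2 for 16 (20.8%, against 11.8%) and in 6-month WT library 3 for 16 (20.8%, against 11.4%). Mrpl47 was at 23.2 FPKM in 6-month KO library 3 and at 49.8 to 92.3 FPKM in the other 11.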
